A study of Sminthopsis crassicaudata with 9 samples.

Results

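The 500 stitched clusters of distal H3K27ac with the highest summed enrichment were described in the face of the newborn fat-tailed dunnart, a small carnivorous marsupial whose young are born at a very immature stage. They were taken from 39284 clusters in all. A cluster was built from H3K27ac peaks of replicate 1 (q under 0.05, which is a value over 1.301 on the −log10 scale) that had a replicate 2 peak sharing at least 50% of either peak's length and that lay over 3 kb from every annotated transcription start site (TSS). Peaks at most 12.5 kb apart were joined, the summit fold enrichment over input times the peak length was summed over the peaks of a cluster, and the clusters were ranked by this score, given here as fold × kb. The members were thus chosen by their replicate 1 H3K27ac fold and peak length. Of 197508 replicate 1 peaks, 148724 had a replicate 2 partner and 128267 of these were distal, 243 of them on scaffolds with no annotated gene.

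The series holds 2 ChIP-seq replicates of each of H3K27ac, H3K4me3 and input and 3 RNA-seq libraries, all from young less than 24 hours old. The ChIP replicates were pools of craniofacial tissue from 26 heads (replicate 1) and 27 heads (replicate 2) per the labels, a total that differs from the one in the study's methods, and each pool served every antibody and its own input. Tongue, neural tube and eye primordia had been dissected away according to the study's methods. Each RNA library was a pool of 2 young, and the libraries are called FP1, FP2 and FP3 after the columns of the count table, since nothing ties these names to replicate numbers. No group was set against another in the study's dunnart samples, so the clusters are compared here with the remaining clusters and their nearest genes with all genes, as descriptions.

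Acetylation of histone H3 at lysine 27 marks active enhancers and promoters, and trimethylation at lysine 4 of the same histone is strongest where transcription starts. Long runs of neighbouring acetylated elements, often called stretch enhancers or super-enhancers, are known from other mammals to lie near genes of cell identity, although a nearest gene need not be the gene that an enhancer acts on. The newborn face is built mainly from neural crest mesenchyme covered by ectoderm, with muscle, vessels and nerves growing in.

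RNA totals were 16096971 to 17419099 counted fragments a library. In the RNA, the level is TPM, a share of all transcripts computed from counts and exon length. Markers of face mesenchyme (6 of 6 annotated genes) and of face epithelium (4 of 4) were over 1 TPM in all 3 libraries, as were 4 of 4 skeletal muscle markers, 5 of 5 markers of red blood cells, 3 of 3 of endothelium, 3 of 4 of leukocytes and 2 of 3 of cartilage. Of the brain and eye markers 1 of 5 and 1 of 5 were over this level, with GFAP and RAX listed at 0 in every library, and the liver marker was not (0 of 1). Over all named genes 75.3% were over 1 TPM in all 3 libraries, so the high shares of such short marker lists say little about the tissue. TTN, the giant protein of the muscle sarcomere, was also listed at 0 beside the muscle markers. A value of 0 is thus not read as absent RNA, and whether a carried-over gene model is incomplete was not tested. The pools are mixtures, so fewer cells of a type and less RNA or acetylation per cell cannot be told apart in any value below.

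The 500 clusters made up 1.27% of all clusters but held 24236 of the distal peaks (18.9%) and 39.6% of the summed score, as the ranking rule favours. Their spans added up to 95.6 Mb, which is 3.39% of the assembly reached by peaks or genes. A cluster spanned 15.4 to 868 kb with a median of 163 kb, and held 2 to 222 peaks with a median of 43. Of the remaining 38784 clusters the median held 1 peak and spanned 0.81 kb. The peaks kept by the rule covered a median of 48.7% of a span. Peaks close to a TSS or without a partner were left out, so this share cannot tell whether acetylation itself was broken there.

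Scores ran between 420 and 4395 fold × kb with a median of 677. The 3 clusters just inside the limit, nearest to RCC1L, MEF2B and CCDC102A, scored 423.6, 420.8 and 420.3 fold × kb. The 3 just outside it, nearest to INPP5D, EXOG and LOC100931381, scored 420.1, 419.8 and 419.5 fold × kb, so the limit falls in a continuous run of scores. A slope of 1 on the scaled rank curve, another common limit, would have taken 1382 clusters. Within a cluster the score was uneven. The highest-scoring single peak held 4.77% to 99.3% of the score with a median of 19.9%, and in 73 of the 500 clusters it held over 50%. As the rule multiplies fold by length, 318 of the 433 distal peaks over 10 kb lay in the 500 clusters, and the longest reached 43.7 kb.

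**Figure D1:**
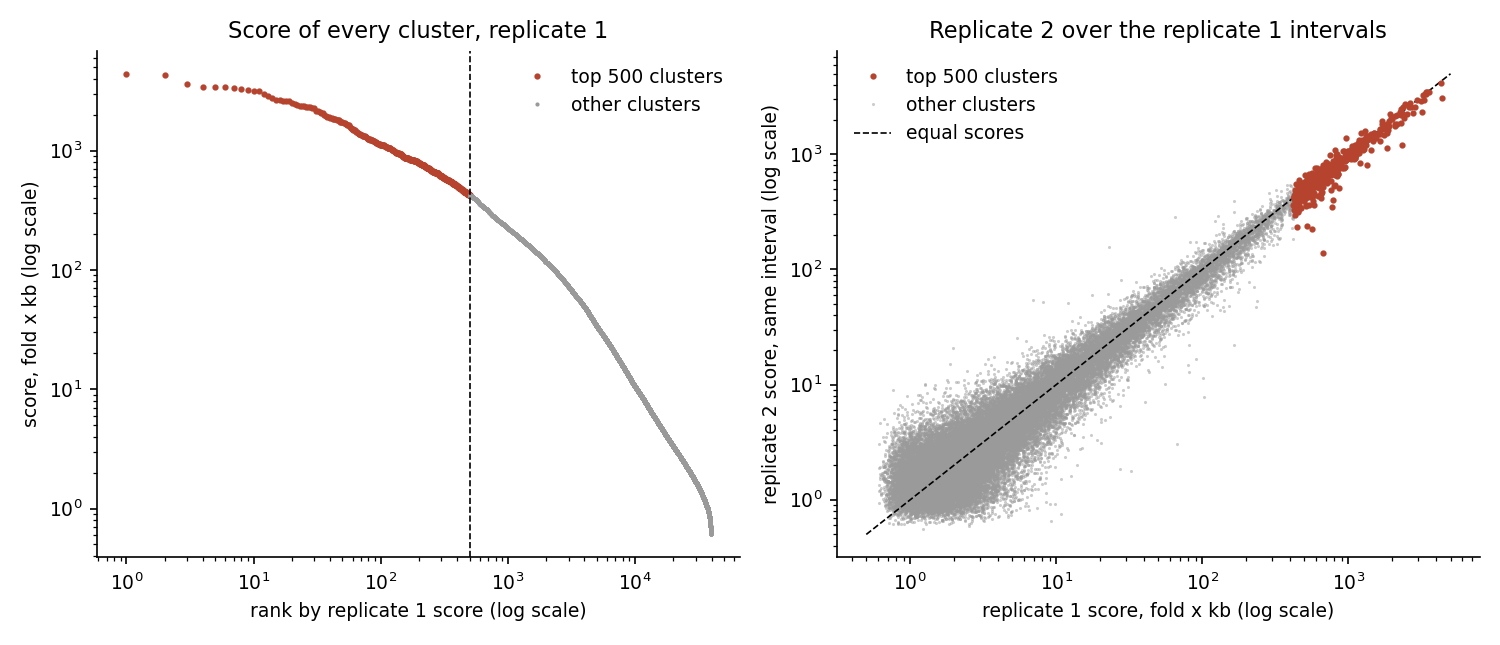
Left, score in fold × kb (log scale) against rank (log scale) for all 39284 clusters of replicate 1; right, the replicate 2 score over the same intervals against the replicate 1 score, both on log scales, with a line of equal scores. The 500 clusters (red) lie left of the dashed line without a break from the other clusters (grey), and nearly all of them lie close to the line of equal scores. Clusters with no replicate 2 peak kept by the same rules are not drawn on the right.

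The ranking was largely shared by the second pool. With replicate 2 peaks, filtered in the same way, summed over the replicate 1 intervals, 464 of the 500 clusters (92.8%) were again among the first 500, as were 17 of the first 20 among the first 20 and 93 of the first 100 among the first 100. Replicate 2 scores were a median of 0.976 times those of replicate 1, and 435 of the 500 were within 20%. Spearman's rho between the replicate scores was 0.94 over the 500 clusters and 0.87 over all 39284, given as a description because both pools share the assembly, the annotation and the requirement for partner peaks. Clusters rebuilt from replicate 2 peaks, each still required to have a replicate 1 partner, numbered 39309. Of the 500 replicate 1 clusters 457 (91.4%) shared a base with one of the first 500 rebuilt ones, and 456 of those 500 (91.2%) shared a base with a replicate 1 cluster.

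The 5 largest disagreements were clusters in which a single peak held over 50% of the replicate 1 score. The cluster at ECM2, an extracellular matrix protein gene, had rank 251 in replicate 1 and 1566 in replicate 2, with scores of 674.6 and 139.7 fold × kb, and its strongest peak held 78.4% of the replicate 1 score. The cluster nearest to LOC116419852 moved between ranks 336 and 948, that nearest to DGKZ, which encodes a diacylglycerol kinase, between ranks 382 and 875, and that nearest to DPYSL3, a regulator of growth cones, between ranks 473 and 908. The cluster of SH2D6 had ranks 204 and 589. When every replicate 2 base inside a span was counted, without the partner and distance rules, ECM2 stood at rank 138, DGKZ at rank 295 and SH2D6 at rank 105, while LOC116419852 stood at rank 1210 and DPYSL3 at rank 1115, and 420 of the 500 were among the first 500. The first cluster also differed between pools, with 4395 fold × kb in replicate 1 and 3088 in replicate 2, where it was the 8th.

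The clusters lay in regions with more annotated TSS than the other clusters did, and close to each other. In 317 of the 500 (63.4%) at least 1 TSS fell between the distal peaks of the span, against 3.27% of the other clusters and 4.04% of all clusters. Long spans have more room for a TSS. Per megabase of span the 500 clusters held 6.17 TSS (590 in all), against 7.69 per Mb in the assembly. Peaks within 3 kb of a TSS were dropped, so a span could end there, and this density can partly reflect the rule. In the 1 Mb around the cluster centre, the median was 13 TSS for the 500 clusters and 6 for the others. The 183 clusters without a TSS in the span lay a median of 7.33 kb from one, and 6 lay over 100 kb away. Peaks of the 500 clusters fell inside gene bodies in 59.2% of cases, against 50.2% of other distal peaks.

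Neighbouring clusters were frequent. For 414 of the 500 (82.8%) another of the 500 lay within 1 Mb, and the median gap to the next one on the same scaffold was 120 kb. They were found on 65 of the 326 scaffolds with a distal peak. Scaffold00002, which is 443 Mb long, held 124 of them (24.8%), beside 16.5% of all clusters. Scaffold00017, of 54.5 Mb, held 40 (8.0%), beside 2.15% of all clusters. In windows of 5 Mb, up to 14 of the 500 fell together, in 3 windows on scaffold00002, scaffold00017 and scaffold00020. Joining at 25 kb merged the 500 clusters into 353 stretches, and joining at 5 kb broke them into 3164, so the number of clusters is a matter of the joining distance.

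Individual loci show what these runs look like. The cluster of rank 1 covered 156.8 kb of scaffold00002 (175166530 to 175323305 in the study's assembly) and held 29 peaks in replicate 1 and 26 in replicate 2. A single peak of 28.2 kb with a summit fold of 110.5 held 70.8% of its score. The TSS of TEX44 and of NMUR1, a receptor for the peptide neuromedin U, lay inside, with TEX44 at 0.931, 1.04 and 0.0864 TPM in FP1, FP2 and FP3 and NMUR1 listed at 0 in every library. Neither gene inside the strongest cluster was thus over 1 TPM in all libraries. Other genes started just outside it. With the edges 78.4 kb from the centre, the TSS of NCL lay 84.5 kb from it on 1 side and that of PTMA 90.6 kb on the other.

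The cluster of NFIA (rank 26), which encodes a nuclear factor I transcription factor, had another shape. It spread 171 peaks over 557.7 kb of scaffold00019 (7361603 to 7919252), with its strongest peak holding 16.8% of the score, and an H3K4me3 peak of 83.0-fold lay a few kilobases beyond the annotated NFIA TSS. COL6A1, a chain of type VI collagen, was flanked by a pair of clusters on scaffold00143, one of rank 210 (218608 to 294892, 16 peaks) ending 5.42 kb from its TSS and one of rank 68 (309847 to 495129, 39 peaks) starting 9.53 kb from it. The cluster of COL1A2, a chain of type I collagen, was short, with 9 peaks in 41.2 kb of scaffold00093 (3049556 to 3090759, rank 294), 9.59 kb from the TSS, and its highest summit fold was 50.0 in replicate 1 and 52.8 in replicate 2. On the other side LOC100915785 was nearly as close. Its TSS lay 30.3 kb from the cluster centre, against 30.2 kb for that of COL1A2.

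**Figure D2:**
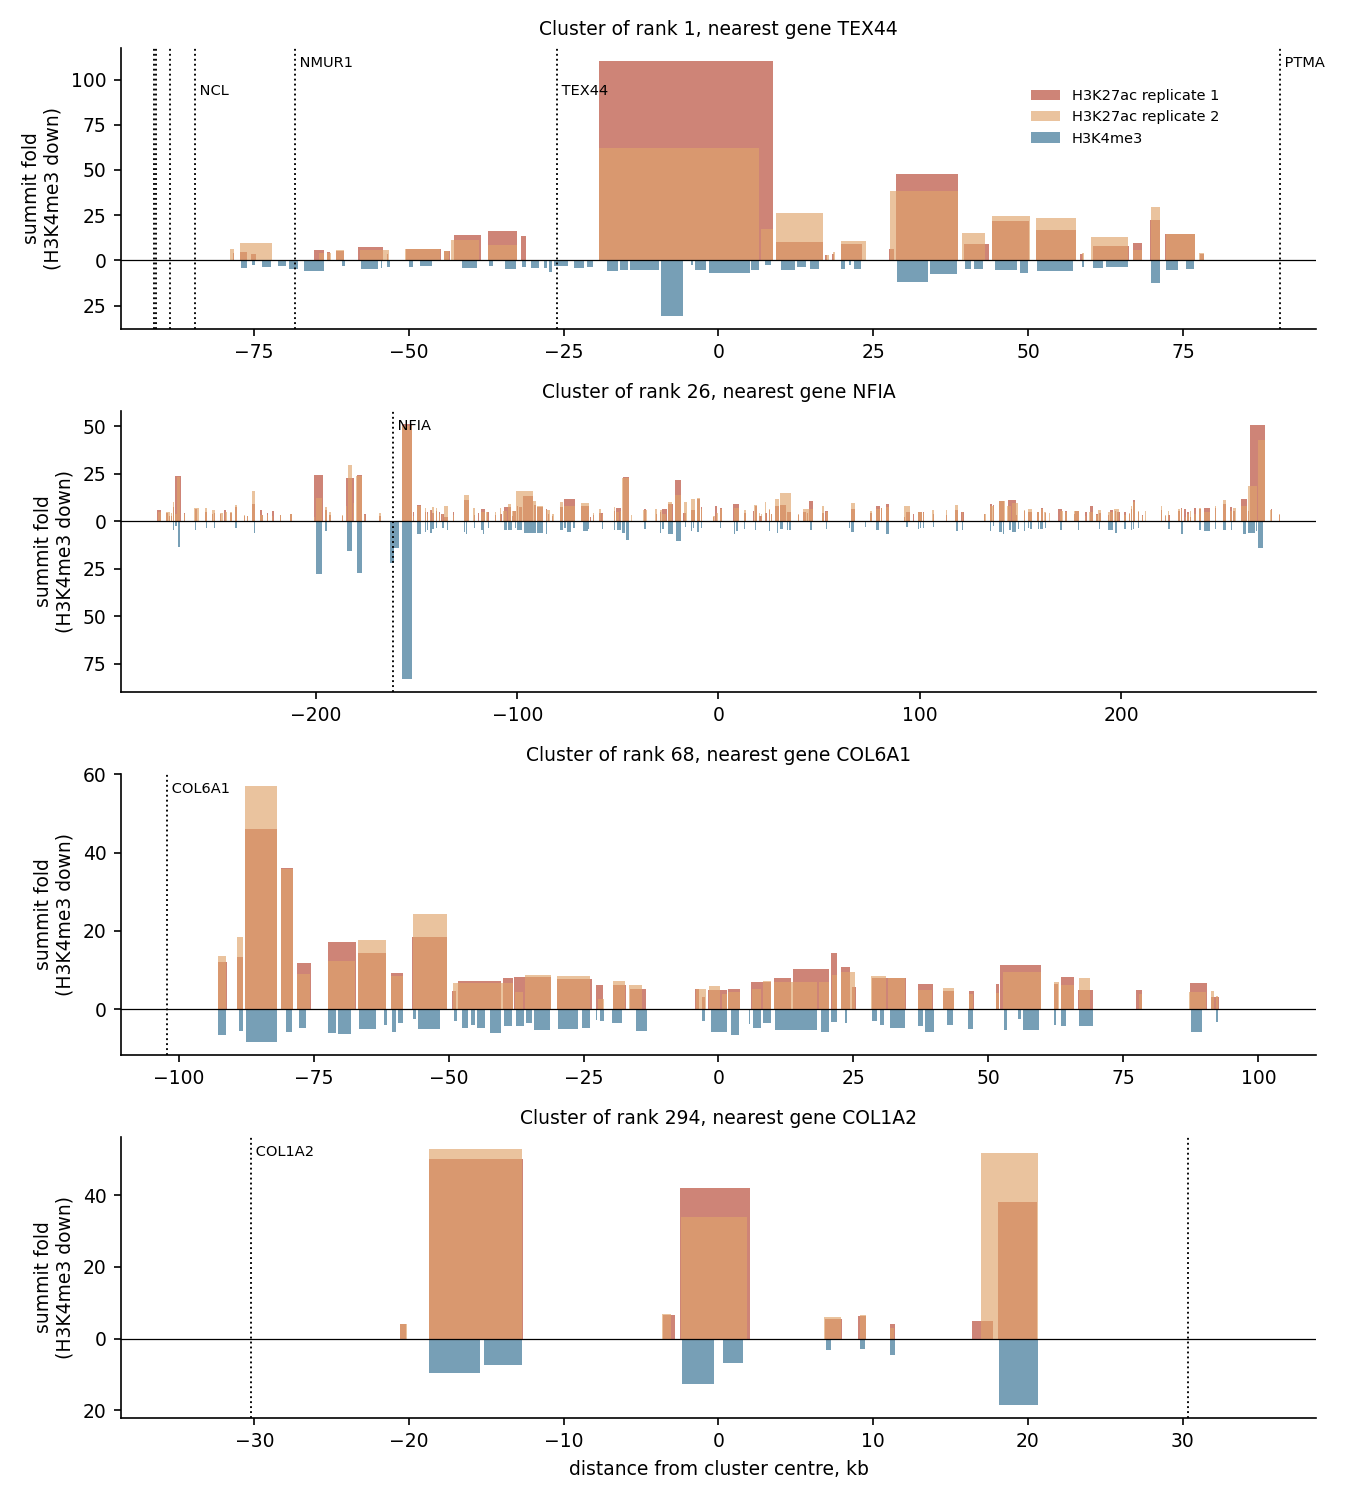
Summit fold enrichment of peaks in 4 clusters against distance from the cluster centre in kb, with H3K27ac replicates 1 and 2 upwards, H3K4me3 peaks found in both pools downwards, bar width equal to peak length, and dotted lines at annotated TSS (named where the gene has a symbol). One broad peak dominates the rank 1 cluster, whereas the NFIA cluster holds 171 peaks and the COL1A2 cluster 9.

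H3K4me3, which the ranking did not use, covered much of the clusters. Of the cluster peaks, 66.5% shared a base with an H3K4me3 peak found in both pools, against 44.8% of the other distal H3K27ac peaks and 48.9% of all of them. In the pools taken singly the shares were 76.2% and 79.4% of cluster peaks, against 57.2% and 61.4% of the others, so the gap between the peak groups was wider than that between pools. Within classes of peak length the gap was smaller, and the median length was 1139 bp in the clusters and 601 bp elsewhere. Among peaks of 500 to 1000 bp the shares were 65.1% and 69.7% in the clusters, against 59.6% and 63.3% elsewhere. Among peaks of 4 kb or longer all shared a base with H3K4me3 in each pool in both groups.

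Counted by peaks, the H3K4me3 in question was mostly weak. A strong H3K4me3 peak was defined as one of at least 6.11-fold, the 10th percentile of the 11784 peaks that cover a TSS. Of the cluster peaks 15.4% shared a base with one, against 9.89% of the others and 10.9% of all distal peaks. Within length classes the order turned round below 4 kb, with 25.9% of cluster peaks of 2 to 4 kb against 34.8% of others, and 56.8% of cluster peaks of 4 kb or longer against 52.4% of others. Counted by score, where long peaks weigh more, 54.3% of the 500 clusters' score lay on peaks with strong H3K4me3, against 39.8% elsewhere. The highest-scoring peak had strong H3K4me3 in 415 of the 500 (83.0%), against 16.0% of the other clusters, where it was picked from far fewer peaks. At least 1 strong H3K4me3 peak was found in 497 of the 500 clusters (99.4%), against 18.6% of the other clusters and 19.6% of all clusters. A cluster with a median of 43 peaks has many more chances to hold one than a cluster of 1 peak, so nothing is read from this count. The 3 clusters without one were nearest to LOC116423665, TBATA and ADO. Strong H3K4me3 was thus present in clusters built only of peaks away from annotated TSS, and whether such peaks are starts missing from the annotation was not tested.

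**Figure D3:**
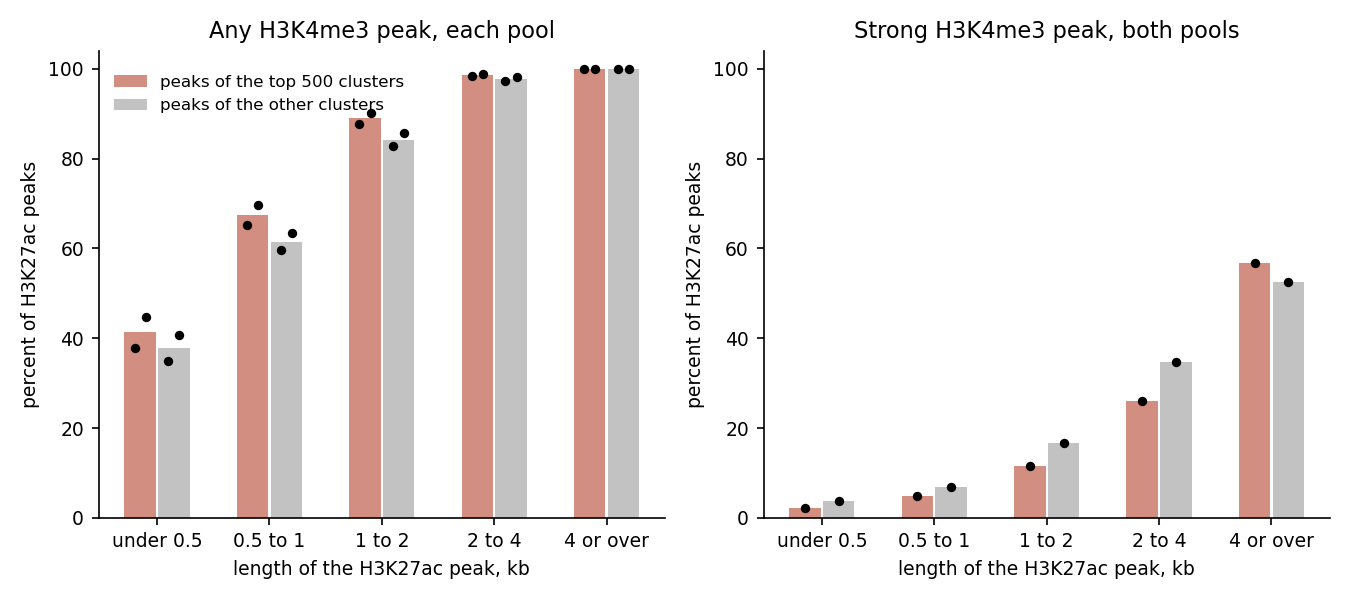
Percent of distal H3K27ac peaks that share a base with an H3K4me3 peak, by length of the H3K27ac peak in kb, for peaks of the 500 clusters (red) and of the other clusters (grey). Left, any H3K4me3 peak, with bars at the mean of the 2 pools and points for each pool; right, strong H3K4me3 peaks found in both pools, 1 value a group, which are less frequent in the clusters at every length under 4 kb.

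The genes nearest to the clusters were more often transcribed than genes at large. The nearest gene was over 1 TPM in all 3 libraries for 347 of the 500 clusters (69.4%), against 53.9% of the other clusters, 54.1% of all clusters and 56.5% of all counted genes. The median level of the nearest genes was 11.9, 14.4 and 9.87 TPM in FP1, FP2 and FP3, against 2.33, 3.26 and 2.04 TPM for the other clusters. The cluster group was thus higher in each library, and by more than the libraries differed. Over the mean of the libraries the median was 12.3 TPM, but it was 6.02 TPM when peaks on any H3K4me3 were left out, 6.77 TPM when clusters were ranked by their number of peaks, and 25.2 TPM when the nearest gene with a symbol was taken. The 500 clusters have 493 different nearest genes, since 6 genes with a symbol (SPATA6, KLHL29, COL6A1, MKI67, ST6GALNAC3, TBC1D22A) and 1 unnamed gene were each nearest to 2 clusters.

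Unnamed genes made up much of the group with little RNA. The nearest gene was an unnamed LOC gene for 133 clusters, of which 23.3% were over 1 TPM, beside 14.2% for the other clusters and 21.0% of all LOC genes. For the 367 clusters with a named nearest gene the share was 86.1% and the median 26.0 TPM, against 72.4% and 8.95 TPM for the other clusters, and 75.3% and 12.8 TPM over all named genes. The difference held at each distance. With the TSS 3 to 10 kb from the cluster edge, 74.6% of nearest genes were over 1 TPM for the 500 clusters against 59.5% for the others, and over 50 kb away 61.9% of 21 against 50.2%.

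Within the 500, rank said little about RNA. Clusters 1 to 100 had a median of 12.0 TPM and clusters 251 to 500 one of 12.0 TPM, and clusters 501 to 1000, outside the limit, had 11.6 TPM with 71.1% over 1 TPM. The level then declined to 7.53 TPM for ranks 1001 to 5000 and 1.89 TPM for the last 19103. Spearman's rho between score and mean TPM of the nearest gene was 0.02 over the 500 clusters and 0.11 over 39030 clusters, where points share a pool, an assembly and, at times, a nearest gene.

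**Figure D4:**
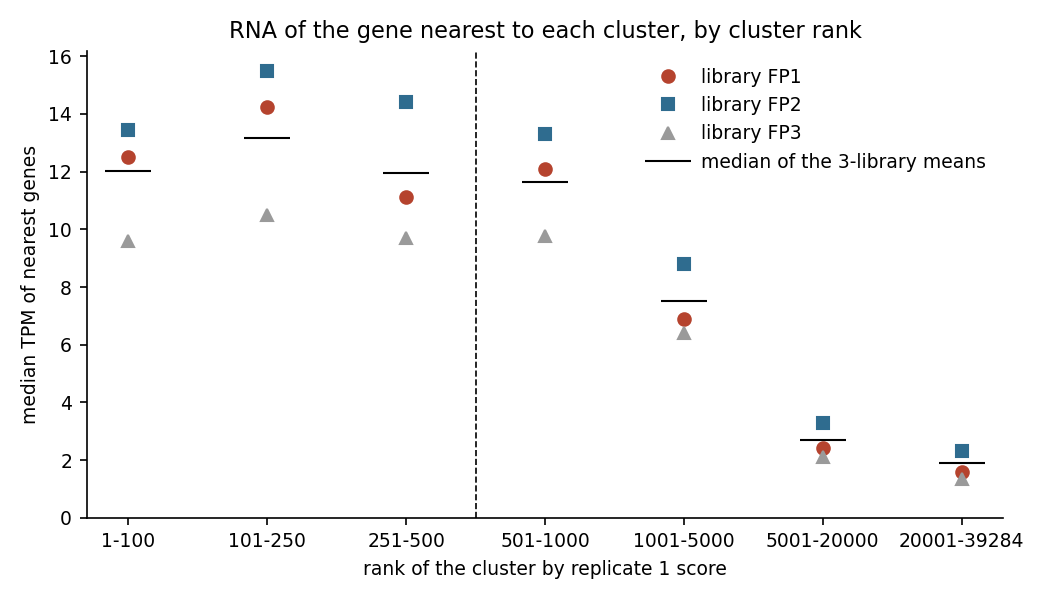
Median TPM of the genes nearest to clusters, by rank class of the cluster, for each RNA library (symbols) and for the mean of the 3 libraries (black bars); the dashed line marks the limit at 500. The level is about the same in the first 4 classes, from 11.6 to 13.2 TPM, and lower in the last 3, and FP3 is the lowest library in every class.

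The first 20 clusters had nearest genes of varied function and level. SKI, a repressor of TGF-beta signalling, lay inside the cluster of rank 4 (140 peaks, 554.9 kb) and had 45.2, 58.5 and 49.7 TPM in FP1, FP2 and FP3. CTTN, which encodes the actin-binding protein cortactin, lay in the cluster of rank 11, the longest of all with 222 peaks in 868 kb, and had 237, 248 and 216 TPM. RXRA, the retinoid X receptor that pairs with retinoic acid receptors, was 68.5 kb from the cluster of rank 20 and had 18.2, 27.0 and 18.8 TPM. All 3 genes were highest in FP2, as was the median over all named genes (11.3, 15.1 and 11.4 TPM in FP1, FP2 and FP3).

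Membrane proteins were encoded by several others. KCNQ1, a potassium channel subunit, was the gene nearest to the centre of the cluster of rank 3 and had 5.43, 5.90 and 4.64 TPM, whereas CD81, a tetraspanin whose TSS is in the same span, had 463, 379 and 324 TPM. DYSF, needed for repair of the muscle cell membrane, was 4.62 kb from the cluster of rank 5 (203 peaks) and had 39.0, 32.4 and 39.3 TPM. The next cluster on that scaffold, of rank 13, was nearest to EXOC6B, a subunit of the exocyst, with 5.77, 13.0 and 8.39 TPM. The choice of 1 gene for a cluster can thus hide a neighbour of much higher RNA.

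The remaining named genes of the first 20 averaged between 6.29 and 109 TPM, apart from those under 1 TPM. VPS8, of a vesicle tethering complex, averaged 10.9 ± 1.54 TPM (SD, n = 3 libraries, as for all such values here), MGMT, which repairs alkylated guanine, 10.2 ± 4.85 TPM, and TIMM22, of the mitochondrial import machinery, 50.2 ± 3.56 TPM. RAB3IL1, an exchange factor for Rab proteins, averaged 6.29 ± 2.96 TPM in the cluster of rank 10, which also held the TSS of FTH1, the heavy chain of the iron store ferritin, at 30866, 23226 and 24925 TPM. MOB2, a regulator of kinases, averaged 109 ± 15.1 TPM, FBRSL1 39.5 ± 6.21 TPM, and GTF2IRD1, of a transcription factor family whose loss in humans is part of Williams syndrome, 46.7 ± 6.08 TPM. The 4 LOC genes of the first 20 averaged 0, 0.520, 12.3 and 0 TPM.

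The 5 highest-ranked clusters with a named nearest gene under 1 TPM in all libraries were those of CFAP46 (rank 15, a ciliary protein, 0.307 ± 0.356 TPM), SPATA6 (rank 17, needed for sperm formation in mice, 0.0873 ± 0.0293 TPM), GPR141 (rank 44, an orphan receptor, 0.358 ± 0.281 TPM), AOAH (rank 46, an enzyme that inactivates lipopolysaccharide, 0.307 ± 0.166 TPM) and ARL14 (rank 73, listed at 0). In all, 134 clusters had a nearest gene under 1 TPM in all 3 libraries, and for 39 of these clusters it was a named gene. In the cluster of CFAP46, 60 H3K27ac peaks shared a base with strong H3K4me3, the most of any cluster. Its span also held the TSS of NKX6-2, a homeobox gene at 0, 0.0798 and 0.146 TPM. GPR141 and AOAH are neighbours on scaffold00002 (48163297 to 48730339 over both clusters). SPATA6 was 162 kb from the cluster assigned to it.

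At the other end, the 10 nearest genes of highest RNA were spread over ranks 68 to 494. RPL14, a ribosomal protein, had 2461, 1815 and 2475 TPM with a cluster of rank 331, and COL1A2 had 1653, 2425 and 1156 TPM. SEM1, a proteasome subunit, had 1484, 997 and 1091 TPM (rank 160), and TALDO1, an enzyme of the pentose phosphate pathway, 717, 668 and 617 TPM (rank 494). COL6A1 had 469.7, 839.5 and 526 TPM. Both collagens were highest in FP2, as was the median over all named genes.

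The others of the 10 were MYH9, a non-muscle myosin (408 ± 30.2 TPM, rank 76), LDB3, a protein of the muscle Z-disc (344 ± 139.7 TPM, rank 483), JUND, a subunit of AP-1 (268 ± 23.9 TPM, rank 161), CTNNBIP1, an inhibitor of beta-catenin (244 ± 56.6 TPM, rank 454), and NOP53, a factor of ribosome biogenesis (239 ± 14.1 TPM, rank 307). LDB3 was highest in FP3, at 502 TPM, against 295 and 235 TPM in FP1 and FP2. In the cluster of JUND 1 peak held 72.6% of the score, and in that of NOP53 82.8%.

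Some genes gathered many cluster peaks. Counted by the TSS nearest to each peak, AUTS2, a gene linked in humans to autism and facial features, took 187 peaks of the 500 clusters, KLHL29 took 173, NFIA 114 and AGAP1, a regulator of membrane traffic, 111. Their RNA was moderate, at 52.9 ± 7.59 TPM for AUTS2, 22.6 ± 1.51 TPM for KLHL29, 20.3 ± 6.01 TPM for NFIA and 8.21 ± 1.15 TPM for AGAP1. In all, 1298 genes were nearest to at least 1 cluster peak. Under this count a TSS far from other TSS can take more peaks, and the part of gene length or spacing was not tested. Named nearest genes of the 500 clusters had a median length of 41.5 kb, against 58.9 kb for those of the other clusters and 27.8 kb over all named genes.

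Developmental gene lists were represented by a few members each. Over 14 lists of facial and tissue genes, 23 of 407 annotated genes (5.65%) were the nearest gene of 1 of the 500 clusters, beside 2.55% of all named genes. With genes inside a span added, 28 of the 407 were reached, beside 3.95% of all named genes. With every gene that was nearest to at least 1 cluster peak counted, it was 46 of 407 (11.3%), beside 7.01% of all named genes. The lists are small, and most of their genes had no cluster. They were also chosen with earlier results of these data known, so a share above that of all named genes is no independent support.

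Among listed facial mesenchyme and neural crest factors 4 of 58 (6.90%) were nearest genes, beside 2.55% of all named genes. They were NFIA, AUTS2, MSX1 and TWIST2. MSX1, a homeobox factor of the jaw and palate, had 108, 83.9 and 109 TPM with a cluster of rank 194 (58 peaks), and TWIST2, a basic helix-loop-helix factor of mesenchyme, had 89.4, 64.3 and 47.5 TPM with a cluster of rank 201. ALX4, a homeobox factor of the frontal face, lay inside the cluster of rank 78 without being nearest to its centre and had 11.1, 18.4 and 8.34 TPM. MSX1 and TWIST2 each had a higher TPM than ALX4 in every library.

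Signalling genes followed. In the WNT list 2 of 46 (4.35%) were nearest genes. They were the ligand WNT4 (rank 339, with 23.3, 35.8 and 28.3 TPM) and the receptor FZD2 (rank 426, with 78.1, 93.8 and 60.9 TPM). In the FGF list 2 of 25 (8.0%) were nearest genes. One was the transcription factor ETV5, a target of FGF signalling (rank 123, with 41.8, 49.8 and 49.3 TPM). The other was the ligand FGF3 (rank 112, with 0.624, 0.284 and 0.261 TPM), whose span also held the TSS of the ligand FGF4 at 1.15 ± 0.250 TPM. The FGF3 and FGF4 cluster lay next to that of CTTN on scaffold00017. FGF3 was the only one of the 23 listed genes under 1 TPM in every library.

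For BMP and TGF-beta 1 of 35 was nearest, ID1, a target of BMP signalling (rank 347, 169.6 ± 33.8 TPM), and the receptor BMPR1A lay inside the LDB3 cluster at 15.7 ± 7.72 TPM. The hedgehog list had 1 of 12, the transcription factor GLI3 (rank 267, 5.96, 10.2 and 6.64 TPM in FP1, FP2 and FP3), and the blood vessel list 1 of 23, the growth factor PDGFB (rank 255, 7.27 ± 2.27 TPM). The epidermis list had 1 of 35, the ligand EDA (rank 208, 5.74 ± 1.65 TPM), which acts in the growth of skin appendages. The neural list had 1 of 36, the RNA-binding protein ELAVL4 (rank 309, 2.34 ± 1.11 TPM). Shares were 2.86% for BMP and TGF-beta, 8.33% for hedgehog, 4.35% for blood vessel, 2.86% for epidermis and 2.78% for the neural list. Each rests on 1 gene, beside 2.55% of all named genes, so nothing is read from it.

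Of 27 genes of mesenchymal matrix and adhesion 4 (14.8%) were nearest genes, beside 2.55% of all named genes. They were COL6A1, COL6A3 (rank 479, with 139, 266 and 126 TPM), the elastic fibre protein ELN (rank 99, with 18.4, 64.2 and 21.7 TPM) and the integrin ITGA9 (rank 53, with 10.3, 18.4 and 7.53 TPM). All 4 were highest in FP2, as was the median over all named genes. The bone list had 2 of 13 (15.4%), COL1A2 and the transcription factor CREB5 (rank 36, with 2.26, 5.19 and 3.71 TPM). The cartilage list had 1 of 20 (5.0%), the transcription factor RUNX3 (rank 45, with 6.56, 7.24 and 6.01 TPM).

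Of 26 actin and cytoskeleton genes 3 (11.5%) were nearest, among them the focal adhesion protein TNS1 (rank 351, 51.6 ± 5.21 TPM) and smooth muscle actin ACTA2 (rank 397, 172 ± 58.2 TPM). None of 28 skeletal muscle genes, whose median was 72.0 TPM, and none of 24 housekeeping metabolism genes, with a median of 617 TPM, was the nearest gene of one of the 500. Beside 2.55% of all named genes, lists of this size would hold few such genes or none, so the counts say little about either list. Of the muscle genes 3 of 28 (10.7%) were nearest to at least 1 cluster peak, beside 7.01% of all named genes.

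**Figure D5:**
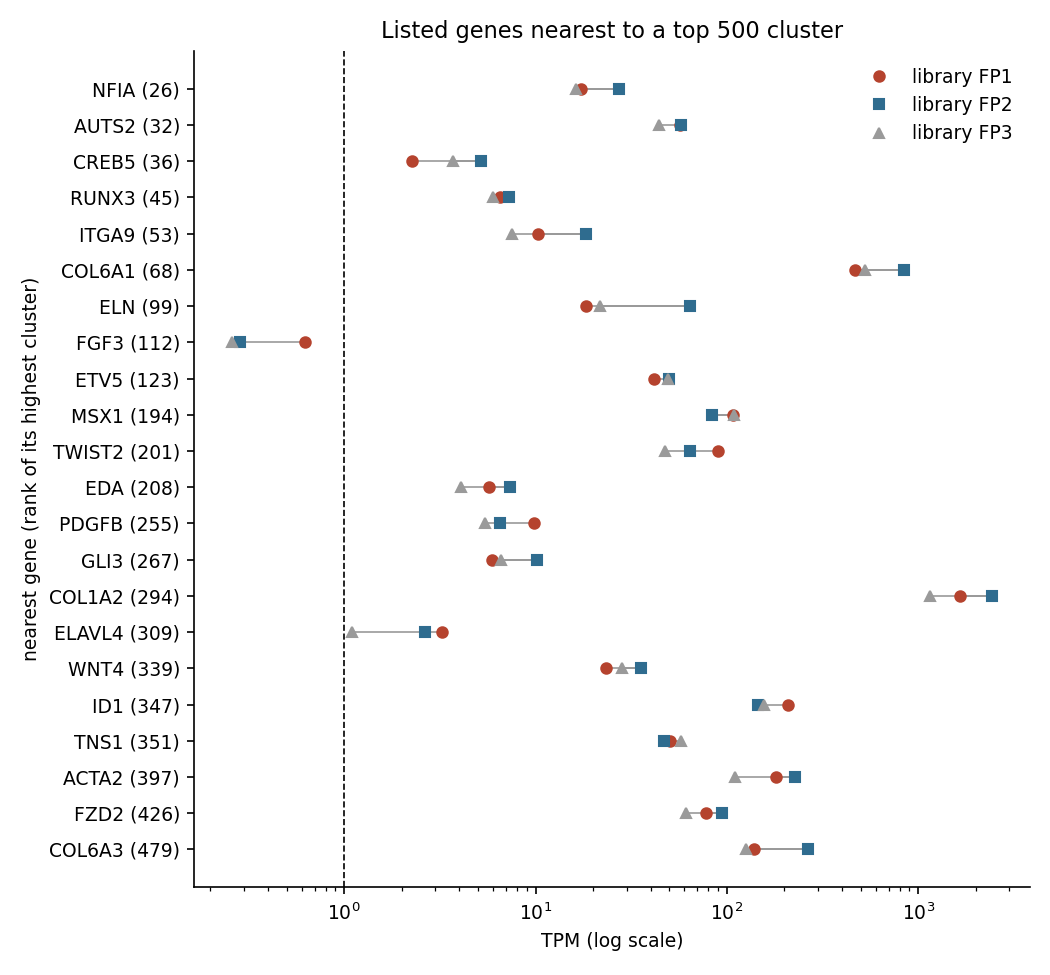
TPM (log scale) in libraries FP1, FP2 and FP3 of 22 of the 23 listed genes that are nearest to 1 of the 500 clusters, ordered by the rank of the cluster, given in parentheses; the dashed line marks 1 TPM. FGF3 lies under 1 TPM in all libraries and COL1A2 lies highest, at 1156 to 2425 TPM.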

How the data were processed

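H3K27ac and H3K4me3 ChIP-seq of 2 tissue pools and RNA-seq of 3 pools were used as deposited. Per the labels and the study's methods, the authors used cutadapt 1.9.1 on the ChIP reads, Bowtie2 2.3.5.1 with the study's dunnart assembly, and MACS2 2.1.1 for peaks of each pool against its own input. The deposited peak lists give a fold enrichment over input at the summit (a ratio) and the −log10 of a p-value and a q-value, with no read depth; the MACS2 display score that the authors deposited was not used. The authors' RNA counts are fragments over exons of Tasmanian devil gene models carried over with Liftoff, made with Trimmomatic 0.39, HISAT2 2.21 and featureCounts of Subread 2.0.1 and deposited without normalization.

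Peaks were kept at q under 0.05, paired and joined with bedtools 2.31.1 and pandas 2.3.3 (Python 3.11.15), and the scripts recovered planted clusters in simulated data. Summit fold times length overstates the area of a long peak. TPM was computed from counts and summed exon length. A gene's TSS was the outermost exon end by strand, and the 11 genes whose lines were broken in the count table kept their coordinates but no counts. TMM factors for 1 alternative came from edgeR 4.0.16 in R 4.3.3. All values are descriptive, since the series holds 1 tissue at 1 age. Genes named are the nearest genes with a symbol of the first 20 clusters, those nearest to most clusters, the 10 of highest TPM, the 5 first clusters by rank with a nearest gene under 1 TPM, the 5 largest rank differences, 3 ranks on each side of the limit and up to 4 members of each gene list. Other genes, named for their position inside or beside a span, their count of cluster peaks or as an exception to a count, were chosen after their values were seen. The values of 1 listed gene are not reported here. The clusters, gene lists and rules were chosen with earlier results of these data known.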

Additional observations from a re-analysis of the deposited data

How the results depend on the processing

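No paired analysis was possible because no result comes from a test between groups. Main values were 69.4% of nearest genes over 1 TPM with a median of 12.3 TPM, 66.5% of cluster peaks on H3K4me3 and 23 listed nearest genes. The measure of movement was the SD between single libraries (1.10 percentage points and 2.28 TPM) or between single pools (2.25 percentage points). Single-library shares were 70.2% to 72.4% and single-pool shares 76.2% and 79.4%, so these are not SDs of the main shares. Joining at 5 kb gave 72.5%, 16.0 TPM and 75.7% on H3K4me3, and joining at 25 kb gave 71.1% and 60.6% on H3K4me3. A TSS distance over 1 kb gave 71.1%, a q-value under 0.001 gave 71.2% and 71.9% on H3K4me3, and a partner sharing 50% of both lengths gave 70.5% on H3K4me3. Ranking by number of peaks kept 326 of the 500 and gave 63.5%, 6.77 TPM and 62.4% on H3K4me3; ranking by marked length gave 67.2%; ranking by the highest fold kept 105 and gave 75.2%. Without peaks on strong H3K4me3, 307 of the 500 were still met, with 65.6%, 8.71 TPM and 58.8% on any H3K4me3, and without peaks on any H3K4me3, 140, with 63.7% and 6.02 TPM. The first 250 clusters gave 68.0% and 13 listed genes, the first 1000 gave 41 listed genes, and the 1382 past a slope of 1 gave 70.7% and 53. The nearest named gene gave 85.0% and 25.2 TPM, and a limit of 10 TPM gave 48.4%. With TMM factors the median was 25.4, in CPM and not per length. Counting every gene with a TSS in the span, chosen after seeing the data, gave 68.2%. Leaving out 1 RNA library gave 69.4% to 70.8% and 11.2 to 13.4 TPM. Without replicate 1 scores, that is with scores from replicate 2, 420 to 464 of the 500 were kept, with 68.8% to 71.8%, 12.0 to 15.1 TPM and 66.5% to 66.9% on H3K4me3. Replicate 1 still served there for the intervals or the partner peaks. The nearest TSS to the centre was the same gene for every cluster, by construction. The cause of each movement was not tested. The files give no ChIP read depth, so no counting error could be attached to folds or scores.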
